A study of Mus musculus with 94 samples.

Results

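CD34-negative basophils of the mouse bone marrow were split by their reads of Ctsg, the gene of the neutral serine protease cathepsin G. A cell was called Ctsg-high at 100 counts per 1e+06 gene reads (CPM) or more and Ctsg-low below that, among cells with at least 50000 gene reads. The members were thus chosen by their own Ctsg reads. The split used 46 of the 94 cells in the series, 19 of them Ctsg-high and 27 Ctsg-low. All cells came from female C57BL/6 mice, of which the design names 3, and the labels give no genotype, treatment or age for any group. Each cell was sorted alive as Lin- Sca1- FcεRI+ from one of a pair of gates, CD34- (47 cells) or CD34+ (47 cells), into a well of its own, and ERCC spike-in RNA was added to every reaction. The 46 CD34+ cells that passed the same read minimum are given beside the split, which they did not enter. The labels tie no cell to a mouse, so each group counted as 1 sample and no test was run. Every difference below is a description of these 46 cells, and the spread given is that from cell to cell.

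Basophils are rare granulocytes that carry the high-affinity IgE receptor and store histamine and proteases in cytoplasmic granules. In the mouse the proteases Mcpt8 (mast cell protease 8) and Prss34 (mast cell protease 11) mark the lineage. Cathepsin G is packed with myeloperoxidase and neutrophil elastase into the primary granules that myeloid precursors make, and CD34 is a surface protein of progenitors.

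Ctsg itself chose the groups, so its levels are given only to show where the line fell. The Ctsg-high cells ranged from 100.5 to 2672 CPM with a median of 602 CPM (69 to 1714 reads per cell). The Ctsg-low cells ranged from 0 to 70.2 CPM with a median of 1.34 CPM, and 21 of the 27 held at least 1 Ctsg read. The CD34+ cells ranged from 137 to 14272 CPM with a median of 3514 CPM, so that the highest cells of the CD34- gate lay below the median of the other gate. Just inside the line were cell 38 at 100.5 CPM and cell 2 at 122 CPM. Just outside it were cell 37 at 70.2 CPM, cell 11 at 31.3 CPM and cell 41 at 10.2 CPM.

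**Figure D1:**
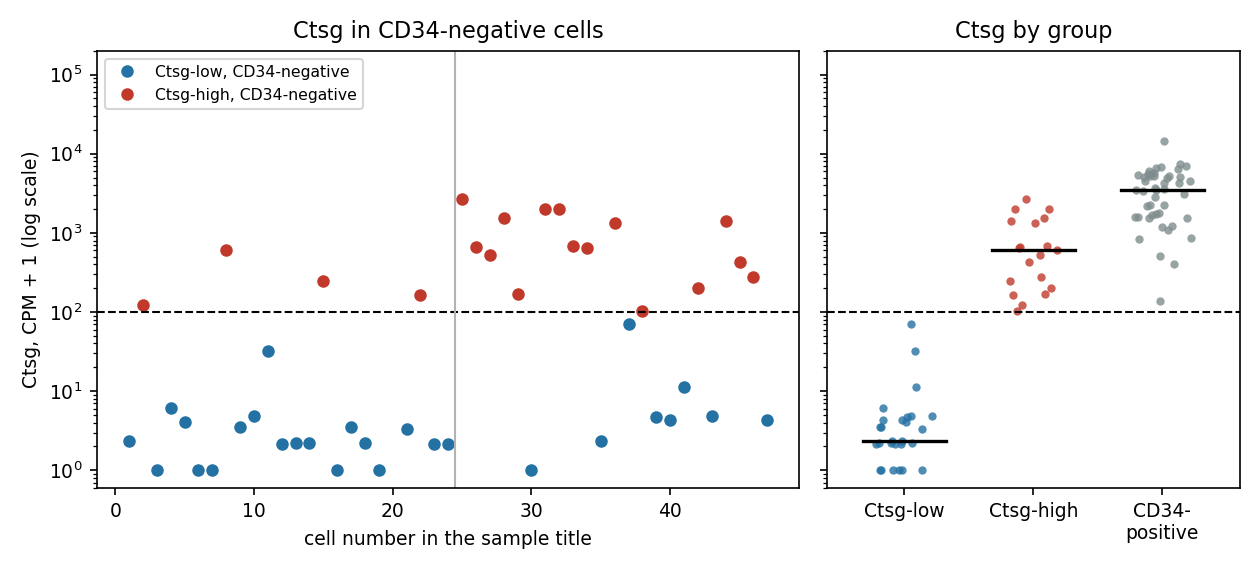
Ctsg level (CPM plus 1, log axis) of each kept CD34- cell against the number in its label (left) and by group with the CD34+ cells beside them (right; black bars are medians); the dashed line is 100 CPM and the grey line divides cells 1 to 24 from cells 25 to 47. The Ctsg-high cells spread from 100.5 to 2672 CPM, and 15 of the 19 carry numbers from 25 to 47.

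The cell numbers, the cell cycle and one library moved with the split. Of the 23 kept cells numbered 1 to 24, 4 were Ctsg-high (17.4%, exact 95% binomial interval 4.95 to 38.8%), against 15 of the 23 numbered 25 to 47 (65.2%, 42.7 to 83.6%). These intervals treat cells as independent, although none is tied to a mouse, and are no test. The ranges of numbers were chosen after the values were seen. The labels do not say that a number marks a plate, mouse or day. The CD34+ cells of the same numbers had Ctsg medians of 4534 and 3470 CPM. The part of the numbers in the results below was not tested, and values within a range of numbers are given for the genes and lists whose call or direction they alter most. Cells 25 and 36, both Ctsg-high, held reads of 51 and 47 of the 52 G2/M phase genes, against 3 to 16 in the other Ctsg-high cells and 2 to 13 in the Ctsg-low cells.

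Cell 10, a Ctsg-low cell, went against its basophil label. It had 2 reads of Fcer1a and 2 of Ms4a2, which encode the alpha and beta chains of the IgE receptor, where the lowest of the other 45 cells had 223 and 481 CPM. It had 1 read of the transcription factor gene Gata2 and 0 of the histamine-making enzyme gene Hdc. Instead it held Cd74 (the MHC class II invariant chain) at 12273 CPM, C1qb at 3119 CPM and H2-Aa at 3548 CPM, and no other cell exceeded 2.41 CPM of Cd74. Its Prss34 (118 CPM), Mcpt8 (45.6 CPM) and Ctsg (1 read) lay within the range of the other Ctsg-low cells. The other 45 cells had reads of Fcer1a, Ms4a2, Gata2 and Hdc without exception. Results were recomputed without cell 10 and without cells 25 and 36.

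Depth was similar in the groups, at 563189 to 919997 gene reads per Ctsg-high cell and 262944 to 938322 per Ctsg-low cell. The median Ctsg-high cell had more genes with a read. At a common depth of 200000 gene reads drawn from each cell, the median number of genes with a read was 4816 in Ctsg-high cells (2801 to 7285), 4332 in Ctsg-low cells (2949 to 5323) and 6496 in CD34+ cells. Gene reads per ERCC spike-in read had medians of 8.93 (2.81 to 21.1), 5.65 (2.34 to 10.3) and 14.4. The ratio of the Ctsg-high to the Ctsg-low median was 1.58, and the groups overlapped widely in both measures. Within cells 25 to 47 the medians were 4816 and 4635 genes and the ERCC ratio was 1.24, and within cells 1 to 24 they were 4826 and 4120 genes with a ratio of 1.72. At a Ctsg threshold of 200 CPM the difference in genes was 856, against 484 at 100 CPM. The part of either measure in the results below was not tested. Mitochondrial reads (1.69% against 1.55%) and reads assigned to more than 1 gene, as a share of these and gene reads together (17.2% against 17.3%), had close medians. All levels below are CPM, a share of gene reads. With ERCC reads in place of gene reads the median log2 fold of all genes moved from -0.02 to 0.47, so a change near 0 on the CPM scale is a higher amount per spike-in read.

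**Figure D2:**
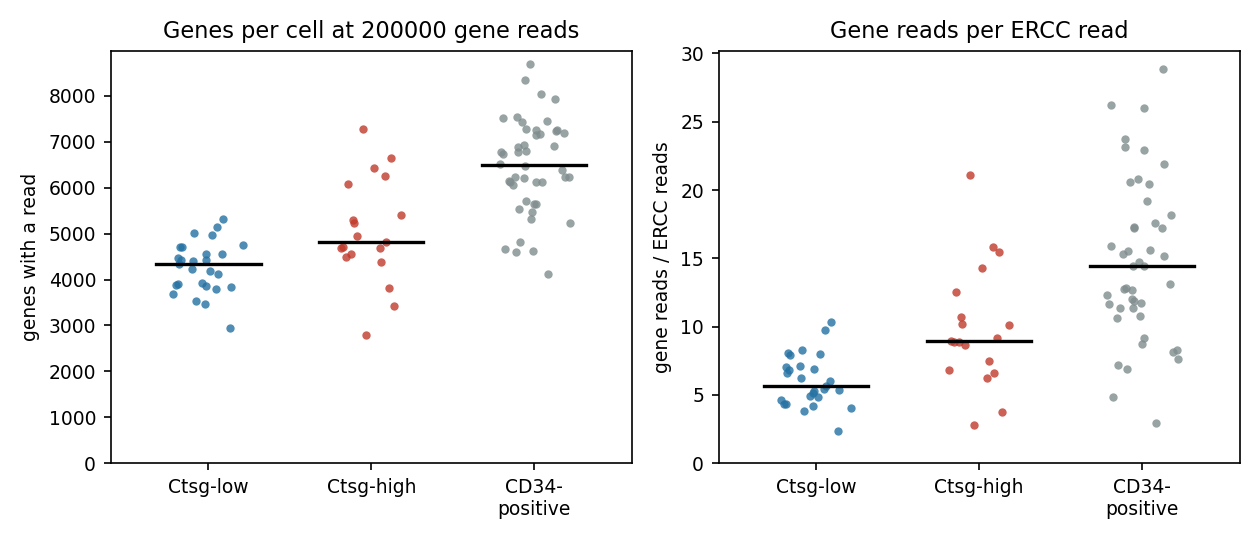
Genes with a read at 200000 gene reads (left) and gene reads per ERCC read (right) in each Ctsg-high, Ctsg-low and CD34+ cell; black bars are medians. The Ctsg-high medians, 4816 genes and 8.93 gene reads per ERCC read, lie between those of the Ctsg-low and the CD34+ cells.

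Reads were summed over the cells of a group, and a fold is the log2 ratio of Ctsg-high over Ctsg-low after adding 1 CPM to each. A gene was counted as higher or lower when it passed 2-fold in the sums, in the means of the cells' CPM and in the sums without the cell that held most of its reads. Of 8362 genes with reads in at least 10 of the 46 cells (Ctsg left out), 664 were higher in Ctsg-high cells (7.94%) and 519 lower (6.21%). The minimum of 10 cells was met by the group with the higher level alone for 191 of the 664 and 193 of the 519, so such genes could hardly come out otherwise and their counts are no support. In 0 genes (0%) did the 2 groups of cells not overlap. With ERCC reads as the scale the counts were 1519 higher and 210 lower. Without cell 10 they were 676 and 514 of 8287 genes, and without cells 25 and 36 they were 528 (6.59%) and 564 (7.04%) of 8015. Within cells 25 to 47 alone 679 (11.8%) and 352 (6.10%) of 5772 genes passed, and within cells 1 to 24, with 4 Ctsg-high cells, 328 (6.92%) and 823 (17.4%) of 4743.

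Ctsg lies in the mast cell chymase and granzyme locus. In the GRCm38 build, GENCODE places 15 protein-coding genes of the locus on chr14:55941451-56262260. Ctsg (chr14:56099881-56102574, minus strand) and Mcpt8 (chr14:56082166-56085273, minus strand) are neighbours with 14607 bases between them. Mcpt8 was the other abundant gene there. Of the remaining 13 genes, Gzmb (granzyme B) had 547 reads in 4 Ctsg-high cells, Gzmc had 18 reads in 1 cell, and no other had more than 1 read. Prss34 lies elsewhere, at chr17:25298394-25300165 on the plus strand, and Ccl6 at chr11:83587882-83593087 on the minus strand. The 250 bases before the RefSeq start of the 3 proteases are shown because the 3 genes were high together in the cells described next. They are Ctsg at chr14:56102575-56102824 (minus), Mcpt8 at chr14:56085198-56085447 (minus) and Prss34 at chr17:25298144-25298393 (plus), RefSeq, GRCm38.p6. The RefSeq start of Mcpt8 lies inside the GENCODE gene. Capitals mark the single match to AGATAA, a longer form of the GATA motif of GATA factors. Matches to GATA alone were not marked, and the Ctsg and Mcpt8 windows hold TATC, its reverse complement.
Ctsg: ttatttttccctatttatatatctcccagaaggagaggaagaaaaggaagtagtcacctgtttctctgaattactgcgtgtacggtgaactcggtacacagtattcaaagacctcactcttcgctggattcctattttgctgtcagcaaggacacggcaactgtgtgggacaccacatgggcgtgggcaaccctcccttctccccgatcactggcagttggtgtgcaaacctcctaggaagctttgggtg
Mcpt8: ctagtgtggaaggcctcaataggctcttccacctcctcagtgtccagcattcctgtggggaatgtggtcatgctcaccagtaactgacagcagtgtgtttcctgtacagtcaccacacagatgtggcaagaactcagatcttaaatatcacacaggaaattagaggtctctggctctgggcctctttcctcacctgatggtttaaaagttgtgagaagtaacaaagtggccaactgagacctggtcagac
Prss34: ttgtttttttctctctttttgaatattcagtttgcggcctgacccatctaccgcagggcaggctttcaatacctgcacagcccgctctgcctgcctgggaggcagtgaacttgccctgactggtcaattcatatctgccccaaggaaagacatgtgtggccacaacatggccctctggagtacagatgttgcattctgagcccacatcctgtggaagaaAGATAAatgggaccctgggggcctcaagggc
AGATAA was searched on both strands and occurs in 9.99% of the 32851 RefSeq promoters of this length. TTNNGCAA, a motif of the C/EBP family, occurs in 9.56% of them and in none of the 3. The same window of Ccl6 held neither motif.

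Among genes that passed 2-fold and reached 20 CPM in a group, the granule protease genes Mcpt8 and Prss34 separated the groups best, cell by cell. Prss34, which encodes a tryptase-like protease, had 132 to 92634 CPM in Ctsg-high cells (median 54469) and 17.5 to 27395 CPM in Ctsg-low cells (median 2480). The Ctsg-high median was thus above the highest Ctsg-low cell, although the groups overlapped. Summed over cells it was 49818 CPM (exact Poisson 95% interval 49702 to 49935, counting error only) against 5418 CPM (5385 to 5450), a 9.19-fold difference and a log2 fold of 3.20. In 89.1% of all pairs of a Ctsg-high and a Ctsg-low cell the Ctsg-high cell had more. Mcpt8 had 1533 to 35141 CPM in Ctsg-high cells (median 18895) and 10.6 to 7956 CPM in Ctsg-low cells (median 536). Its sums were 16888 and 1602 CPM, a 10.5-fold difference and a log2 fold of 3.40, with 91.2% of pairs. Of the 3 genes on the list of basophil proteases these 2 were counted as higher, against 7.94% of all genes. The CD34+ sums were 62565 CPM for Prss34 and 21224 CPM for Mcpt8. For these genes the Ctsg-high sum thus lay nearer to the CD34+ sum than to the Ctsg-low sum. This did not hold for every measure. The median genes per cell at 200000 gene reads, 4816, lay nearer to the Ctsg-low median (4332) than to the CD34+ median (6496).

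Both differences were smaller within cells 25 to 47 (log2 2.14 for Prss34 and 2.52 for Mcpt8) and kept their direction within cells 1 to 24 (3.08 and 3.27). The third protease, the carboxypeptidase gene Cpa3 that basophils share with mast cells, separated the groups less. It had 3.55 to 5960 CPM in Ctsg-high cells (median 2843) and 2.06 to 3945 CPM in Ctsg-low cells (median 789). Its log2 fold of 1.08 did not pass in the sums without its top cell, was -0.97 within cells 1 to 24 and was 1.51 within cells 25 to 47. All 3 proteases were counted as higher within cells 25 to 47 and at Ctsg thresholds of 50 and 200 CPM.

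Within the 19 Ctsg-high cells the proteases were graded with Ctsg. As Ctsg also chose these cells, the grading is a description and no support for the split. The rank correlation with Ctsg over these cells was 0.83 for Prss34, 0.69 for Mcpt8 and 0.54 for Cpa3, a description over cells of 1 gate whose CPM share a total. Over the same cells it was above 0 for 5375 of the 8362 genes and below 0 for 2971, with a median of 0.10. The 11 cells at 500 CPM of Ctsg or more, a line chosen after the values were seen, had 28718 to 92634 CPM of Prss34 and 9804 to 34416 CPM of Mcpt8. The 8 cells below it had 132 to 80704 and 1533 to 35141 CPM. Cell 46, with 272 CPM of Ctsg, had 80704 CPM of Prss34. Cell 45 was the reverse, with 422 CPM of Ctsg and 132 CPM of Prss34, the lowest Ctsg-high value. That library also had the highest mitochondrial share of the Ctsg-high cells (4.95%), the highest ambiguous share (33.2%), the fewest genes (2801) and the fewest gene reads per ERCC read (2.81), and their part in its values was not tested.

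Ccl6, a CC chemokine gene of myeloid cells, and Cd7, which encodes an immunoglobulin-family receptor, were the opposite markers. Ccl6 had 0 to 9288 CPM in Ctsg-high cells (median 73.3) and 1.35 to 14289 CPM in Ctsg-low cells (median 5991). Its sums were 1684 CPM (1663 to 1706) and 6075 CPM (6040 to 6110), a log2 fold of -1.85, and in 19.7% of pairs the Ctsg-high cell had more. Its CD34+ sum was 192 CPM. Cd7 was read in 10 of 19 Ctsg-high cells (median 1.13 CPM, highest 1219) and 25 of 27 Ctsg-low cells (median 434 CPM, highest 1283). The Cd7 sums were 154 and 554 CPM, a log2 fold of -1.84, which was -2.79 without its top cell (cell 42) and -5.64 at a Ctsg threshold of 200 CPM, and the CD34+ sum was 13.95 CPM. No cell at 500 CPM of Ctsg or more exceeded 11.2 CPM of Cd7.

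**Figure D3:**
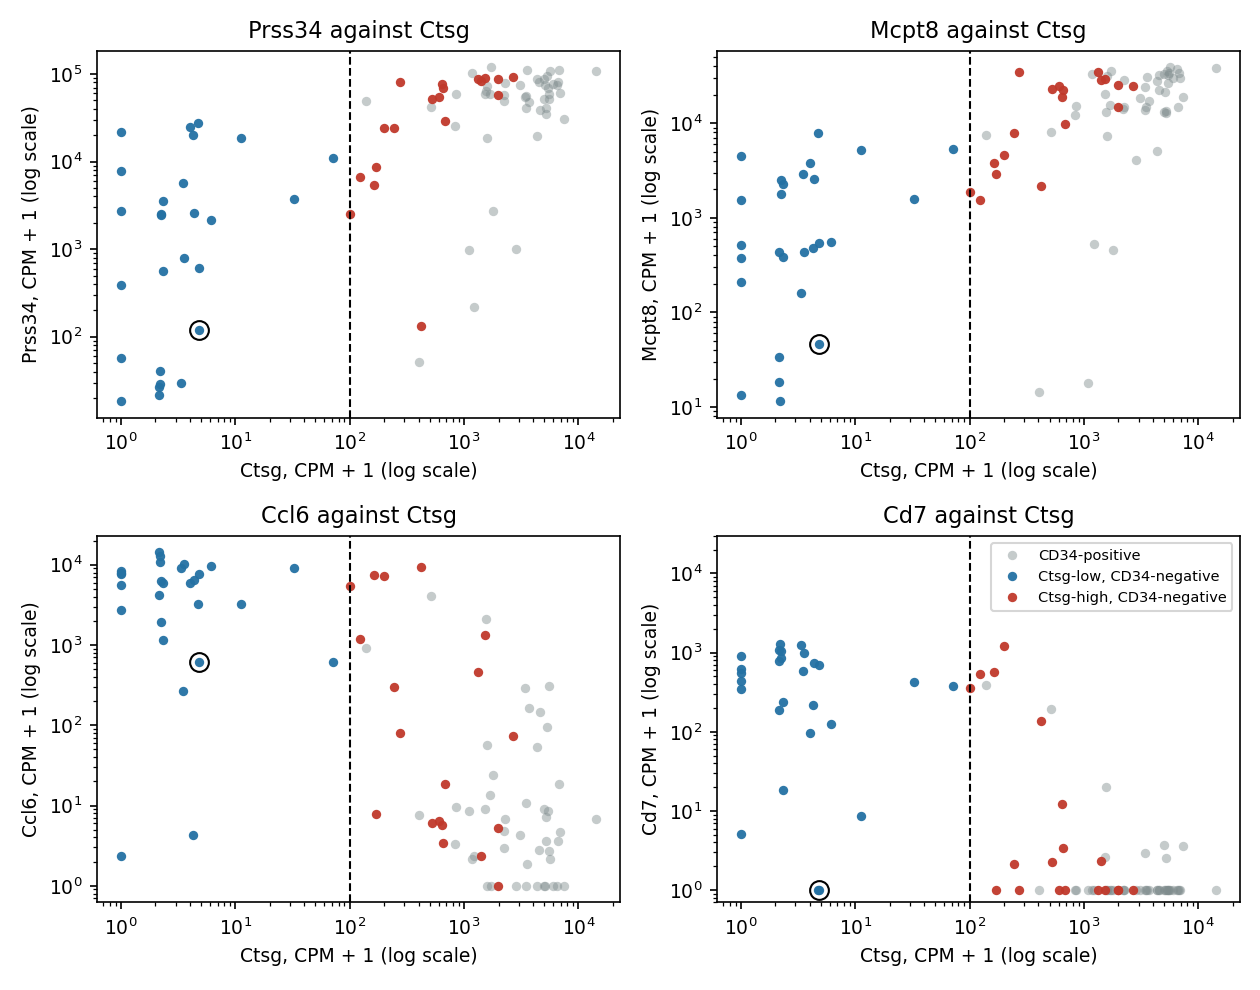
Prss34, Mcpt8, Ccl6 and Cd7 against Ctsg in each cell (CPM plus 1, log axes; red Ctsg-high, blue Ctsg-low, grey CD34+; the circled cell is cell 10). Prss34 and Mcpt8 climb with Ctsg across the red points, while Ccl6 lies under 100 CPM in 11 red and 2 blue cells and Cd7 at 100 CPM or more in 5 red and 21 blue cells.

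The markers were also read together in each cell. With thresholds chosen after the values were seen, 10 of 19 Ctsg-high cells had at least 10000 CPM of Prss34 and 5000 CPM of Mcpt8 together with under 100 CPM of Ccl6. This held for 0 of 27 Ctsg-low cells and 34 of 46 CD34+ cells. The protease part alone held for 13, 3 and 41 cells, and Ccl6 was under 100 CPM in 11, 2 and 39. Cd7 reached 100 CPM in 5 Ctsg-high, 21 Ctsg-low and 2 CD34+ cells. The 5 Ctsg-high cells were 2, 22, 38, 42 and 45, and all 5 also had Ccl6, from 1179 CPM in cell 2 to 9288 CPM in cell 45. Their Ctsg was 100.5 to 422 CPM. Cells 28 and 36 had Ctsg of 1538 and 1314 CPM, high proteases and no Cd7 read, yet 1343 and 462 CPM of Ccl6. Among Ctsg-low cells, cells 37, 39 and 41 had the protease pattern with 617, 3249 and 3236 CPM of Ccl6. Cell 37, the nearest to the line, thus carried high proteases, Ccl6 and Cd7 (381 CPM) at once. Some cells were low in Ccl6 without the protease pattern. Cell 29, Ctsg-high, had 8751 CPM of Prss34 and 2870 CPM of Mcpt8 with 6.80 CPM of Ccl6, and the Ctsg-low cells 7 and 47 had 1.35 and 3.26 CPM of Ccl6 beside 7868 and 19946 CPM of Prss34.

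Of the list of primary granule genes and protease maturation factors, 8 of 12 had enough reads, and 3 of these were higher (7.94% of all genes), with a median log2 fold of 1.23 and all 8 above 0. Mpo, the gene of myeloperoxidase, had 4167 reads in Ctsg-high cells (0 to 2114 CPM, median 2.66) and 19 in Ctsg-low cells (highest 3.75 CPM). Its sums were 295 and 0.98 CPM, a log2 fold of 7.22, but 45.3% of its reads in the gate came from cell 36, and without cells 25 and 36 the log2 fold was 5.62. Within cells 1 to 24 it was 0.22. Ms4a3, a membrane protein of myeloid precursors and basophils, was spread over more cells. It had 3446 against 13 reads, 0 to 1130 CPM (median 132) in Ctsg-high cells, at most 5.12 CPM in Ctsg-low cells, and a log2 fold of 7.197 (5.59 within cells 1 to 24). Cst7, a cystatin that inhibits cysteine proteases of granules, had 225 and 104 CPM, a log2 fold of 1.11, which was 0.01 within cells 25 to 47. Without cell 10, 2 of the 8 passed (8.16% of all genes), and within cells 1 to 24, 1 of 5 (6.92% of all genes), with a median of 0.32. Leaving out cell 15 alone gave a median of 0.80.

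Calr (calreticulin, an ER chaperone that also binds newly made myeloperoxidase) had 345 and 131 CPM, a log2 fold of 1.39 that did not pass in every version and was -0.30 within cells 1 to 24. Srgn (serglycin, which packs granule proteases) had a log2 fold of 0.37 and Ctsc (cathepsin C, which activates them) one of 0.31, or -0.83 within cells 25 to 47. Elane and Prtn3, neutrophil elastase and proteinase 3, had too few reads to be used: 54 and 60 reads in Ctsg-high cells and 0 in Ctsg-low cells, with all Prtn3 reads in cell 29. Prss57 had 147 reads in 3 Ctsg-high cells. The CD34+ sum of Mpo was 3119 CPM, above the 2114 CPM of the highest Ctsg-high cell. Markers of late neutrophils had summed levels of 0 to 235 CPM in Ctsg-high cells and 0 to 127 CPM in Ctsg-low cells. Of the 9, Ly6g, Retnlg, Ltf, Camp and S100a8 had no read in the gate, and Lcn2 gave 588 and 68 reads. Their part in the primary granule values was not tested.

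Markers of other cell types had low sums in both groups, although single cells reached more. Of 9 mast cell genes 8 had no read, and the list summed to 0.07 and 0 CPM in Ctsg-high and Ctsg-low cells. The eosinophil list summed to 66.6 and 84.0 CPM, almost all of it Siglecf, with Epx and Prg2 at 0. In single cells this list ranged over 0 to 431 CPM (Ctsg-high) and 0 to 1099 CPM (Ctsg-low). B cell genes came to 38.9 and 81.9 CPM, mostly Cd79b, with Ms4a1 at 0. In single cells they ranged over 0 to 251 CPM (Ctsg-high) and 0 to 506 CPM (Ctsg-low). Of 3 measured B cell genes 1 was lower, beside 6.21% of all genes. The erythroid (1.77 and 0.16 CPM), T and NK cell (2.27 and 0.78 CPM) and megakaryocyte (0 and 0.05 CPM) lists were near 0. The monocyte and dendritic cell list ranged over 0 to 655 CPM in Ctsg-high cells and 0 to 443 CPM in Ctsg-low cells other than cell 10, which had 18129 CPM. Cd34 had 6 and 1 reads and Kit 2 and 4, so neither group held the transcripts of these progenitor genes in quantity. The whole list of 18 stem and progenitor genes summed to 1013 and 766 CPM.

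Genes of the endoplasmic reticulum (ER), where secreted proteases are translocated, glycosylated and folded, had a positive median in Ctsg-high cells, although most did not pass 2-fold. Of 31 measured members of 32, 7 were higher (7.94% of all genes) and 0 lower, with a median log2 fold of 0.97 and 26 above 0. Pdia3, a disulphide isomerase for glycoproteins, had 0 to 1556 CPM in Ctsg-high cells (median 705) and 0 to 655 CPM in Ctsg-low cells (median 146). The Ctsg-high median was above every Ctsg-low cell, and the sums were 664 and 217 CPM (log2 1.61). The related isomerase gene Pdia4 had 224 and 61.1 CPM (log2 1.86) and was read in 15 of 19 and 11 of 27 cells.

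The other 5 that passed were Rpn1, a subunit of the oligosaccharyltransferase (171 and 45.4 CPM, log2 1.89, or 0.36 within cells 1 to 24), the co-chaperone Dnajc3 (log2 1.85), Selenos of ER-associated degradation (log2 1.79), the signal peptidase subunit Spcs3 (log2 1.73) and Manf, a secreted ER stress protein (log2 1.27). Within cells 25 to 47 Selenos (0.98), Spcs3 (0.94) and Manf (0.89) were just under 2-fold. Hspa5, the main ER chaperone of the Hsp70 family, had a log2 fold of 0.87 (-0.50 without its top cell, cell 31), Hsp90b1 one of 0.45 and Dnajb9 one of -0.998 (1.47 within cells 25 to 47 and -5.87 within cells 1 to 24), and none of these passed. Without cells 25 and 36 the count was 7 of 31 (6.59% of all genes, median 0.80), and within cells 25 to 47 it was 8 of 29 (11.8% of all genes), not all of them the genes above. The median was 0.64 without cell 31. Within cells 1 to 24 it had 3 higher and 1 lower of 24 (6.92% and 17.4% of all genes) with a median of 0.31.

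Of the chemokine list 4 of 5 members were measured, Ccl6 and Ccl4 were lower (6.21% of all genes), and the median log2 fold was -1.19. Ccl4, a chemokine for T cells and monocytes, had 0 to 375 CPM in Ctsg-high cells (median 37.4) and 0 to 1274 CPM in Ctsg-low cells (median 289), with a log2 fold of -2.25. Ccl3 (medians 691 and 1066 CPM, log2 -0.53) and Ccl9 (medians 1360 and 3248 CPM, log2 -0.44, or 0.49 within cells 1 to 24) did not pass. Of the 4, 1 was lower within cells 25 to 47 (6.10% of all genes) and 3 within cells 1 to 24 (17.4% of all genes), with Ccl3 at -1.57. Within the Ctsg-high cells the rank correlation of Ccl9 with Ctsg was nonetheless -0.69, and in the CD34+ cells it was -0.57. Of 18 effector cytokine and mediator genes 9 were measured and 1 was lower. That was Osm (oncostatin M, a cytokine of the interleukin-6 family), with 52.2 and 157 CPM, reads in 7 of 19 and 18 of 27 cells and a log2 fold of -1.57, and it met the minimum of cells through the Ctsg-low cells alone. The growth factor gene Csf1 had medians of 643 and 1332 CPM and a log2 fold of -0.87. Hdc (log2 -0.49), the interleukin gene Il4 (0.51) and the leukotriene enzyme gene Alox5 (0.46) did not pass, and the list's median of -0.47 was 0.04 with ERCC scaling, -0.29 without cell 21, -0.18 within cells 25 to 47 and -0.02 within cells 1 to 24.

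Receptors for adhesion and chemotaxis had a negative median, and most did not pass 2-fold. Of 21 measured, 4 were lower (6.21% of all genes) and 0 higher, with 17 below 0 and a median log2 fold of -0.66, or -0.14 with ERCC scaling. C3ar1, the receptor of the complement fragment C3a, had reads in 15 of 19 Ctsg-high cells (0 to 1654 CPM, median 334) and in all 27 Ctsg-low cells (111 to 3280 CPM, median 751). Its log2 fold of -1.25 was -1.66 within cells 25 to 47 and -0.34 within cells 1 to 24. Ccr3, the eotaxin receptor, had 39.3 and 141 CPM (log2 -1.81, or -0.72 within cells 1 to 24), and Itgb1, the integrin beta 1 chain, 148 and 423 CPM (log2 -1.50). Ptafr, the receptor of platelet-activating factor, had 4 reads in 2 Ctsg-high cells and 782 reads in 10 Ctsg-low cells, so it met the minimum of cells through the Ctsg-low cells alone, unlike the other 3 that passed. The hyaluronan receptor gene Cd44 (log2 -1.08) and the integrin gene Itga2 (-1.07) lay near the line without passing. Cxcr4, the bone marrow retention receptor, had a log2 fold of 0.55, or 1.55 without its top cell (cell 5).

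Immune receptor genes were measured for 13 of 21, with 1 higher, 2 lower and a median of -0.02, beside 7.94% higher and 6.21% lower of all genes, so the 1 higher gene is no more than that share. Clec12a, an inhibitory C-type lectin, was the higher one, with 0 to 1120 CPM in Ctsg-high cells (median 310) and 0 to 986 CPM in Ctsg-low cells (median 1.32), and a log2 fold of 1.79, or 2.51 without its top cell (cell 6). The lower ones were Cd7 and Il10ra, the interleukin-10 receptor chain (37.8 and 149 CPM, log2 -1.95, and -0.75 within cells 1 to 24, with reads in 3 of 19 and 16 of 27 cells, so that it met the minimum of cells through the Ctsg-low cells alone). Cd200r3 and Fcgr3, which basophils carry in quantity, both had log2 folds of -0.02. The 12 genes of the IgE receptor and its proximal signalling gave 0 higher and 0 lower, with a median of -0.09. Within cells 25 to 47, 2 of 12 were lower (6.10% of all genes). Within cells 1 to 24, 1 of 12 was higher (6.92% of all genes). Fcer1a had 223 to 8761 CPM in Ctsg-high cells (median 3446) and 7.61 to 5873 CPM in Ctsg-low cells (median 2144), a log2 fold of 0.62 (-0.17 within cells 1 to 24), and the lowest value is that of cell 10.

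Immediate-early genes, which encode transcription factors and other regulators that respond quickly to a stimulus, had a negative median in Ctsg-high cells. Of 14 measured members of 20, 8 were lower (6.21% of all genes) and all 14 lay below 0, with a median log2 fold of -1.67. Jun had 0 to 776 CPM in Ctsg-high cells (median 0) and 0 to 5013 CPM in Ctsg-low cells (median 254), with sums of 82.2 and 631 CPM and a log2 fold of -2.93. Junb (34.8 and 234 CPM, log2 -2.71), Fos (22.9 and 144 CPM, log2 -2.60) and Zfp36, an mRNA decay factor (49.5 and 187 CPM, log2 -1.89), went the same way. Fos was read in only 2 of 19 and 8 of 27 cells, and its log2 fold was -1.93 without its top cell (cell 9). Jund, a relative of Jun, had medians of 25.9 and 75.5 CPM and a log2 fold of -1.71. Ier5 had 0 reads in the Ctsg-high cells and 985 reads in 10 Ctsg-low cells, at least 239-fold lower against a floor of 3 reads over the group. The median of the list is the same with Ier5 at that bound. Ier5, Jun and Fosb met the minimum of 10 cells through the Ctsg-low cells alone and Fos through both groups together, while the other 4 that passed met it in each group. Within cells 25 to 47, 2 of 9 were lower (6.10% of all genes, median -1.12), within cells 1 to 24, 6 of 10 (median -1.43, where 17.4% of all genes were lower), and without cell 10, 7 of 13.

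Cell cycle genes depended on cells 25 and 36. Of 17 measured G2/M genes of 52, 6 were higher (7.94% of all genes) and the median log2 fold was 1.17. Without these 2 cells 1 of 15 was higher, near the 6.59% of all genes, and the median was -0.19. Without cell 36 alone the median was 0.27. Mki67, a marker of cycling cells, had 0 to 3636 CPM in Ctsg-high cells (median 1.21) and 0 to 368 CPM in Ctsg-low cells (median 1.10). Its log2 fold was 3.40 over all cells and 0.09 without the 2, and that of Top2a (DNA topoisomerase 2 alpha) went from 2.62 to -1.58. The 2 cells held 41.8% of the gate's G2/M reads and 19.8% of its S phase reads.

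The S phase list was less bound to cells 25 and 36. Of its 9 higher genes, 5 met the minimum of 10 cells through the Ctsg-high cells alone, Mcm4, Usp1 and Pcna among them. Cells 25 and 36 held reads of 31 and 38 of the 43 S phase genes. The other Ctsg-high cells held 5 to 30 (median 8) and the Ctsg-low cells 3 to 12 (median 6). The values without cells 25 and 36 thus still include a Ctsg-high cell with 30 of these genes. The part of that cell was not tested. Of 20 measured genes of 43, 9 were higher and 1 lower, against 7.94% and 6.21% of all genes (median 0.44), and without the 2 cells 4 of 16 were higher, against 6.59% (median 0.32). Leaving out cell 9 alone gave a median of 0.95. Mcm4, a subunit of the replicative helicase, had 73.5 and 1.603 CPM, reads in 11 of 19 and 3 of 27 cells, and a log2 fold of 4.84, or 4.79 without the 2 cells. Usp1, a deubiquitinase of DNA repair, had a log2 fold of 3.95, or 3.57 without them. Pcna, the sliding clamp of DNA polymerase, had one of 3.02, or 2.25 without them, and -0.35 within cells 1 to 24. No S phase gene was higher within cells 1 to 24, where 4 could be measured and 6.92% of all genes were higher, so this count says little.

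The remaining lists moved little or followed a few cells. Ribosome biogenesis factors had 4 higher (Noc2l, Nop58, Nop56 and Wdr12) and 1 lower (Nip7) of 16, median 0.74, but 0 higher of 5 within cells 25 to 47 (median -0.22), and the median was 0.25 without cell 31. Noc2l met the minimum of cells through the Ctsg-high cells alone. Within cells 1 to 24 Nop58 (1.64 over all cells) was at -2.32 and Wdr12 (3.15) at -0.98. Leaving out the top cell gave 3.69 for Noc2l (4.33; cell 26), 2.82 for Nop56 (1.35; cell 1) and 1.41 for Wdr12 (cell 27). Of 77 nuclear genes of the respiratory chain 6 were higher and 0 lower, median 0.39, which is close to the 7.94% of all genes, and 4 of the 6 met the minimum of cells through the Ctsg-high cells alone. Within cells 25 to 47, 11 of 69 were higher (11.8% of all genes). Within cells 1 to 24, 5 were higher and 4 lower of 49 (6.92% and 17.4% of all genes). Cytosolic ribosomal proteins had 1 higher and 1 lower of 78, median 0.19. Within cells 25 to 47 they had 7 higher and 0 lower of 69, under the 11.8% of all genes that were higher. Within cells 1 to 24 they had 0 higher and 4 lower of 68, under the 17.4% of all genes that were lower. Of 20 transcription factors 1 was lower, no more than the 6.21% of all genes. It was Bhlhe40, a basic helix-loop-helix repressor, with 2.27 and 54.7 CPM, reads in 3 of 19 and 7 of 27 cells and a log2 fold of -4.09, or -1.99 within cells 25 to 47. Gata2, the lineage's GATA factor, had 2660 and 3055 CPM (log2 -0.20), Gata1 had a log2 fold of 0.95 (-0.04 within cells 1 to 24) and Cebpa one of 0.04. Among 11 survival genes Bak1 (log2 1.42, with the minimum of cells met through the Ctsg-high cells alone) and Pim2 (1.61, or 0.25 within cells 25 to 47) were higher and Mcl1, an antiapoptotic protein of the Bcl2 family, was lower (204 and 444 CPM, log2 -1.12, or -0.36 within cells 1 to 24). In MHC class I, 1 of 8 was lower (6.21% of all genes), the peptide transporter gene Tap2 (log2 -1.16). The count was 0 without cells 25 and 36, within cells 25 to 47, and at Ctsg thresholds of 50 and 200 CPM. In all of these but the last, 1 of 8 was higher (6.59%, 11.8% and 8.62% of all genes). In the mitochondrial genome, 1 of 15 was higher (7.94% of all genes), mt-Nd6 (log2 1.37, or 0.54 within cells 25 to 47), with a median of 0.38. The median was 0.22 without cell 45, and at a Ctsg threshold of 200 CPM 3 of 15 were higher (7.8% of all genes).

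Glycolysis (17 genes, median -0.10), actin cytoskeleton (25 genes, -0.00), lysosomal genes (15 genes, 0.07), basophil cytokine receptors (12 genes, -0.36) and stem and progenitor genes (11 genes, -0.09) had 0 higher and 0 lower, beside 7.94% and 6.21% of all genes. Other settings gave some calls. At a Ctsg threshold of 200 CPM, 2 of 11 progenitor genes were lower (9.51% of all genes). Within cells 25 to 47, 1 of 10 cytokine receptors was higher (11.8%) and 1 of 9 progenitor genes lower (6.10%). Within cells 1 to 24, 1 of 14 lysosomal genes was higher (6.92%) and 2 lower (17.4%). Without cell 21 the cytokine receptor median was -0.20. With ERCC scaling the medians of the transcription factors (0.19), the cytokine receptors (0.16), the IgE receptor list (0.42), the immune receptors (0.50), MHC class I (0.49), glycolysis (0.42), the actin genes (0.51) and the progenitor genes (0.41) turned positive. The median of all genes under the same scaling was 0.47. Of these lists, the transcription factors, cytokine receptors, IgE receptor list, glycolysis and progenitor genes lay below the median of all genes on both scales.

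**Figure D4:**
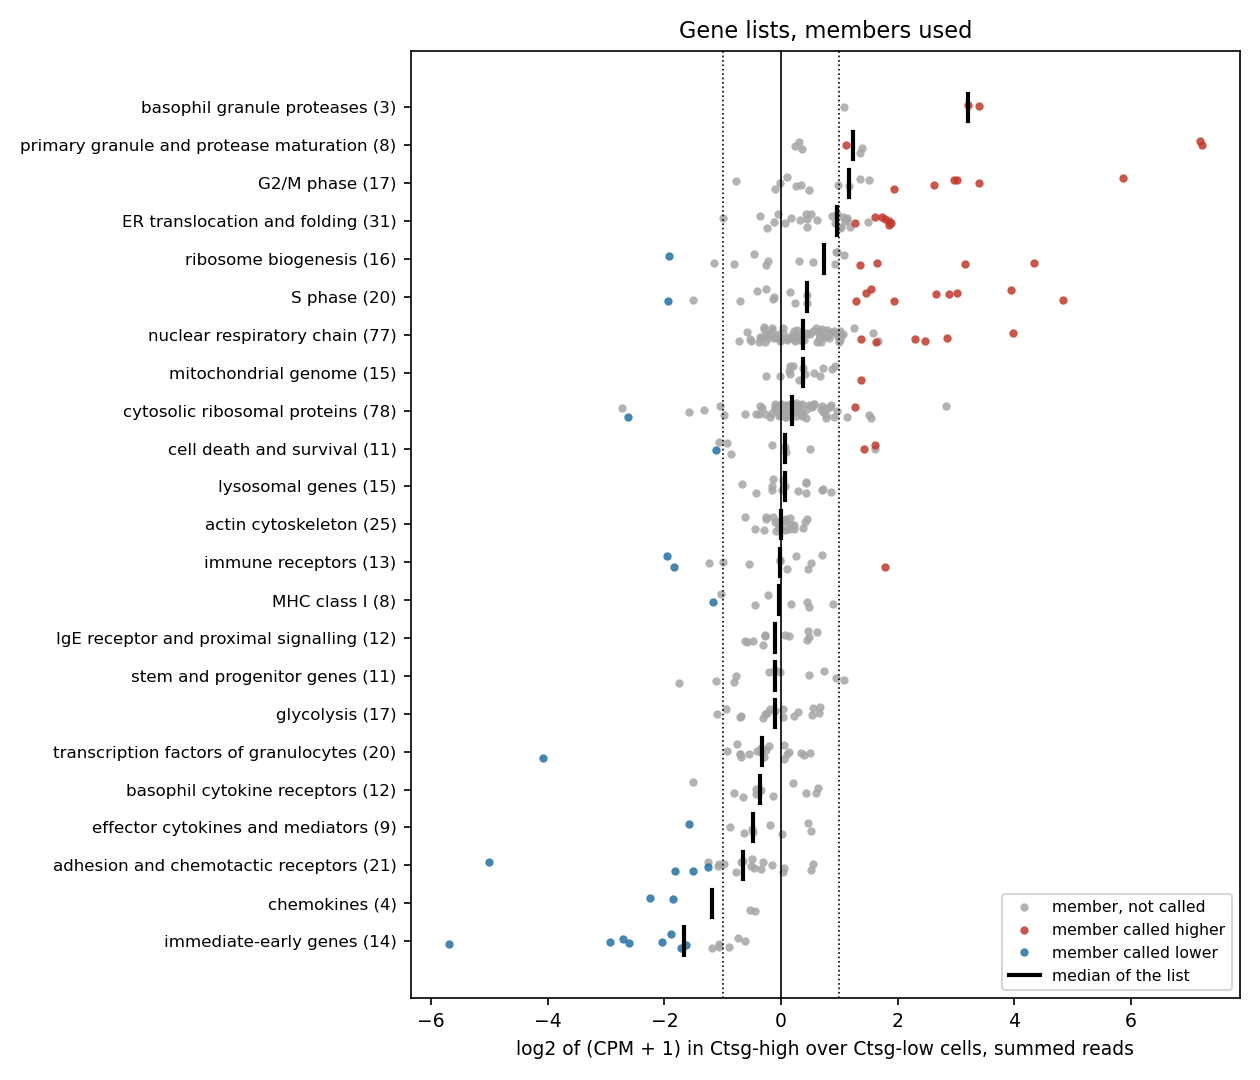
Log2 fold, Ctsg-high over Ctsg-low, of every measured member (points) of the 23 gene lists, with the list's median as a black bar and dotted lines at 2-fold. The protease, primary granule, G2/M (median 1.17), ER and ribosome biogenesis (0.74) lists lie to the higher side. The immediate-early, chemokine, adhesion and effector (-0.47) lists lie to the lower side. The other medians run from -0.36 (cytokine receptors) to 0.44 (S phase).

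The genes that separated the groups best, cell by cell, were taken as the 12 with the highest and the 12 with the lowest share of cell pairs among those that passed 2-fold and reached 20 CPM in a group. Of the 24, Tmem250-ps, Tbrg1, Papss2, Polr2j and Selenop met the minimum of 10 cells through the group with the higher level alone, so their folds are no support. Mcpt8 and Prss34 led the higher ones. Nucb1, a calcium-binding protein of the Golgi, had 2.88 to 2483 CPM in Ctsg-high cells (median 1377) and 0 to 1348 CPM in Ctsg-low cells (median 276), with 85.6% of pairs and a log2 fold of 1.86. Its Ctsg-high median was above every Ctsg-low cell. Edem3, a mannosidase of ER-associated degradation, had 256 and 35.99 CPM (log2 2.79, 82.7% of pairs). Papss2, which makes the donor of sulphate groups, had 141 and 17.3 CPM and reads in 14 of 19 and 4 of 27 cells (log2 2.96), but -1.91 within cells 1 to 24. Plcb4, a phospholipase C, had 189 and 49.5 CPM (log2 1.91), and Ap3s1, a subunit of the AP-3 adaptor of granule and lysosome traffic, 109 and 47.4 CPM (log2 1.19). The other five were the growth regulator gene Tbrg1 (log2 3.06), the RNA polymerase II subunit gene Polr2j (2.22), the uncharacterized transcript F630028O10Rik (1.89) and the pseudogenes Tmem250-ps (2.14) and Rpl3-ps1 (1.68), whose reads may be shared with near-identical copies. Within cells 25 to 47, Plcb4 (0.95), Tmem250-ps (0.92), F630028O10Rik (0.87) and Ap3s1 (0.63) were under 2-fold, as was Rpl3-ps1 (0.58) within cells 1 to 24.

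Among the 12 lower genes, Ssh2, a phosphatase that activates cofilin, separated the cells best. It had 63.8 to 1333 CPM in Ctsg-high cells (median 305) and 35.4 to 2785 CPM in Ctsg-low cells (median 946), with a log2 fold of -1.52 and 17.3% of pairs. Cd7 and Ccl6 came next. A pair of histone methyltransferase genes was lower, Kmt2a (153 and 602 CPM, log2 -1.97) and Nsd1 (211 and 587 CPM, log2 -1.47). Lonp2, a peroxisomal protease (50.0 and 221 CPM, log2 -2.12), and Swap70, a regulator of Rac and actin (67.6 and 276 CPM, log2 -2.01), went the same way. So did Selenop, a selenium carrier (46.6 and 194 CPM, log2 -2.03, or -3.77 without its top cell, cell 29). It met the minimum of cells through the Ctsg-low cells alone. Signalling genes were Rgs2, an inhibitor of G protein signalling (299 and 706 CPM, log2 -1.24), and Igf1r, the receptor of insulin-like growth factor (325 and 739 CPM, log2 -1.18). The others were Grina (log2 -1.22) and Heatr5a (-1.33). All 12 were below 0 in each range of cell numbers, but 6 of them were under 2-fold in a range. Within cells 1 to 24 Igf1r (-0.35), Grina (-0.69), Ssh2 (-0.84), Nsd1 (-0.90), Heatr5a (-0.95) and Rgs2 (-0.97) were, and Rgs2 was also at -0.85 within cells 25 to 47.

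**Figure D5:**
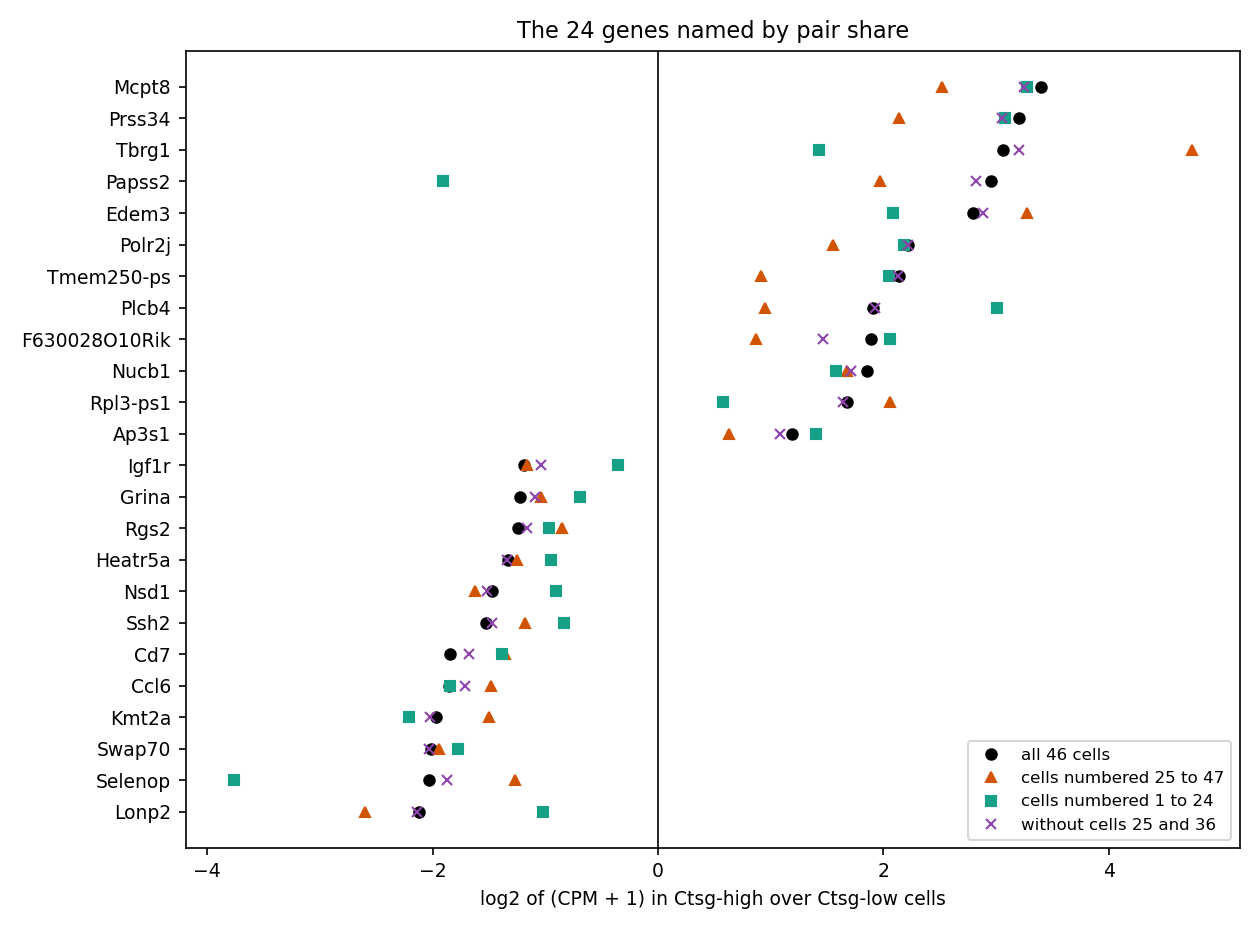
Log2 fold, Ctsg-high over Ctsg-low, of the 24 genes with the highest and lowest pair shares, in all 46 cells, in cells 25 to 47, in cells 1 to 24 and without cells 25 and 36. Papss2, at -1.91 within cells 1 to 24, is the one gene whose sign turns.

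The CD34+ cells took no part in the split, and there the same genes could be set against Ctsg. The Spearman rank correlation with Ctsg over the 46 CD34+ cells, a description over cells of unknown mice whose CPM share a total, was 0.56 for Mcpt8 and 0.39 for Prss34. It was 0.65 and 0.46 for Mcpt8, and 0.45 and 0.32 for Prss34, within cells 1 to 24 and 25 to 47. Without the 2 cells farthest from the median of Ctsg it was 0.54 and 0.41. For Ccl6 it was -0.24, with most CD34+ cells near 0. It was 0.74 for Mpo, 0.68 for Cpa3, 0.61 for Calr, 0.59 for Pdia3 and 0.57 for Ms4a3, which are among the higher values of their lists and were chosen after the values were seen. The median was 0.38 over the measured primary granule genes and 0.32 over the ER genes, and Elane and Prtn3 stood at 0.33 and 0.14. Among the 12 named higher genes it was above 0 for 9 (median 0.21). The 12 include Papss2, Tbrg1, Tmem250-ps and Polr2j, named through the Ctsg-high cells alone, so this tally is no support. Papss2 stood at 0.48 and Nucb1 at 0.39, while Tbrg1 (-0.20), F630028O10Rik (-0.16) and Tmem250-ps (-0.02) went the other way. Among the 12 named lower genes the correlation was below 0 for 10 (median -0.16), with Lonp2 at -0.39 and Ssh2 at -0.29. These 12 include Selenop, named through the Ctsg-low cells alone. Over all 664 higher genes the correlation was above 0 in 65.7%, over all 519 lower genes in 41.04%, and over all 8362 genes in 52.5%. The higher and lower sets still hold the 191 and 193 genes that met the minimum of cells through the group with the higher level alone. Their shares are thus a description and no support.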

How the data were processed

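The 46 kept CD34- cells were compared, 19 Ctsg-high against 27 Ctsg-low, with 46 CD34+ cells beside them. Members, gene lists and the rule for naming genes were chosen with earlier results of these data known. Per the labels' protocols, cDNA went through 19 PCR cycles and single-end sequencing of 50 bp, without molecular identifiers. The authors deposited whole-number read counts per gene for each cell, not normalized. Per the submitters' processing notes, GSNAP 2015-09-29, HTSeq 0.5.3p3 and the mm10 build were used, in roles they do not state. The annotation and strand setting are not given in the sources used here, so overlapping, antisense and near-identical genes are uncertain.

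The table holds 46078 gene identifiers, 45143 of them matched to a symbol, and 92 ERCC sequences. In the kept CD34- cells, genes took 31.7% of reads, ERCC 5.04%, no feature 33.8%, ambiguous 6.64% and unaligned reads 22.8%. Only gene reads entered totals. No 2 columns were identical. Each well received 1 sorted cell, and doublets were not called. Since the labels assign no cell to a mouse, no test was run. Cells with at least 50000 gene reads were kept. Reads were summed per group, converted to CPM and compared as log2 ratios with a pseudocount of 1 CPM, over genes with reads in at least 10 cells. Intervals are exact Poisson (sums) and exact Clopper-Pearson (shares) at 95%, for counting error only. The script was tested on simulated data. Named genes were the 12 highest and 12 lowest by pair share (ties shared equally) among genes past 2-fold in the 3 versions and at 20 CPM or more. Members of 23 function lists and 8 lists of other cell types could also be named. Of their symbols, 2 (Lilrb4a and Lilrb4b) were not matched.

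Alternatives were other group values, scran and TMM factors, ERCC scaling, pseudocounts, filters, Ctsg thresholds and left-out cells. Leaving out cell 10, the ranges of cell numbers, the 2 CD34+ cells farthest from the Ctsg median and the marker thresholds were chosen after seeing the data. Python 3.11.15 with numpy 2.4.6, pandas 2.3.3, scipy 1.17.1 and matplotlib 3.10.9, and R 4.3.3 with scran 1.30.0 and edgeR 4.0.16 (TMM factors only) were used. Gene coordinates are from GENCODE M21 (GRCm38, the build of mm10), and promoters from RefSeq.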

Additional observations from a re-analysis of the deposited data

Results flagged for a closer look

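One CD34- cell, cell 20, fell below 50000 gene reads and entered no comparison, and its reads show a signal in unused data. With 24565 gene reads it had 409 reads of Prss34 (16650 CPM), 153 of Mcpt8 (6228 CPM), 19 of Gata2 (773 CPM) and 4 of Ccl6 (163 CPM), all above the 122 CPM that a count of 0 allows at its depth, although the exact Poisson 95% interval of Ccl6, 44.4 to 417 CPM, reaches below it. Fcer1a and Cd7 had 1 read each (40.7 CPM) and Hdc 0, under that limit, while Ms4a2 (4681 CPM) and Cd200r3 (448 CPM) were above it. It had 2 reads of Ctsg, or 81.4 CPM with an interval of 9.86 to 294 CPM, so its side of the 100 CPM line cannot be told at this depth.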

How the results depend on the processing

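No paired analysis was possible because each number in the gate belongs to 1 cell, so the groups share none, and no test was run. The genes at least 2-fold higher in Ctsg-high cells (664) and the genes at least 2-fold lower in Ctsg-high cells (519) passed in 3 versions. Counted on 1 version alone they numbered 1133 and 1112 with means of per-cell CPM and, for higher genes, 1371 without each gene's top cell. Under other settings they numbered 1519 higher and 210 lower with ERCC scaling, 354 and 320 with a pseudocount of 10 CPM, and 1405 and 939 over genes with a read in at least 1 cell. Higher genes numbered 328 within cells 1 to 24, where 823 were lower, with fewer cells and genes. A Ctsg threshold of 200 CPM gave 795 lower genes. Leaving out each cell in turn gave 585 to 697 higher (lowest without cell 25) and 487 to 563 lower.

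Prss34 (3.20) was 3.06 with means, 3.09 with scran, 3.16 with TMM, 3.72 with ERCC scaling, 3.12 without the top cell, 3.34 at 200 CPM, 3.05 without cells 25 and 36, 3.18 without cell 10, 2.14 within cells 25 to 47, 3.08 within cells 1 to 24 and 3.12 to 3.44 leaving out each cell. Mcpt8 (3.40) was 3.28, 3.29, 3.35, 3.91, 3.29, 3.57 and 3.25 under the first 7 of these, 3.47 at 50 CPM, 2.52 and 3.27 within the 2 ranges and 3.29 to 3.57 leaving out each cell. Ccl6 (-1.85) was -1.73, -1.96, -1.90, -1.34, -1.76, -2.88 and -1.71 under the same 7, -1.93 at 50 CPM, -1.48 within cells 25 to 47 and -2.24 to -1.76 leaving out each cell.

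With ERCC scaling the list medians were 3.72 for the proteases, -0.67 for chemokines, -0.14 for adhesion receptors, 0.19 for transcription factors, 1.48 for ER genes, 0.42 for glycolysis, 0.51 for actin, 0.58 for lysosomal genes, 0.67 for ribosomal proteins, 0.84 for the respiratory chain and 0.87 for the mitochondrial genome, a shift every gene shares. The G2/M median (1.17) was -0.19 without cells 25 and 36, -0.20 within cells 1 to 24 and 3.34 over genes with a read in at least 1 cell. Within cells 25 to 47 the medians were 2.14 for the proteases, -0.086 for actin and 0.31 for ribosomal proteins. Within cells 1 to 24 they were -1.71 for chemokines, 0.31 for ER genes, 0.043 for ribosomal proteins and 0.15 for the respiratory chain. Scran gave -0.11 for actin and 0.078 for ribosomal proteins, 200 CPM gave -0.37 for lysosomal genes, the mitochondrial genome was 0.14 over genes with a read in at least 1 cell, and ribosomal proteins were 0.091 to 0.24 leaving out each cell. Papss2 was -1.91 within cells 1 to 24. The cause of these changes was not tested. Reads of PCR copies limit the precision of genes read in few cells.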
